A study of Bos taurus with 48 samples.

Results

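Leukocytes of the 6 weaned calves were compared between d 0, before housing, and d 7 after weaning. The calves were numbers 1758, 1762, 1769, 1770, 1773 and 1809, and their libraries were chosen by the treatment and day in the labels, which gave 12 of the 48 libraries of the series. All calves were intact male, spring-born suckler calves of a Continental breed (Simmental), vaccinated against respiratory viruses before the study. The d 0 blood was taken while the calves were still with their dams. On that day the weaned calves were abruptly separated from the dam, housed on slatted floors and mixed with other weaned calves. Their diet changed too, from grazing with the dam to grass silage and concentrate feed. Separation, housing, new pen mates, the change of diet and the passing of 7 days therefore cannot be told apart within these animals. The control calves were housed on the same day together with their dams, and are used here only to set the weaned calves beside. Total leukocytes were isolated after lysis of the red cells, and poly(A) RNA was sequenced, 1 library for each calf and day.

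Abrupt weaning with housing is a recognised stressor of suckled beef calves, and blood leukocytes respond to stress hormones from the adrenal gland and from sympathetic nerves. Many of the signals reach the cell through G-protein-coupled receptors (GPCR). RGS proteins shorten such signals by speeding up the hydrolysis of GTP on the G protein. Haemostasis depends on the contact of platelets with collagen through integrins, and type I collagen is best known as a product of fibroblasts, not of leukocytes.

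The 12 libraries held 2933029 to 4119875 counts (median 3535882). Levels are given in CPM, the counts of a gene scaled to a common library total with TMM factors. A count of 3 in a library, set as the limit of detection, was 0.728 to 1.02 CPM. This limit covers counting error only. Levels of different genes are not compared, since CPM is not divided by gene length. Gene symbols were known for only 643 of 25669 genes, through human orthologs that the study listed for genes it had called in some comparison on these samples, so the named genes are a selected group. Of the markers listed for T cells, gamma delta T cells, B cells and monocytes, 0 could be identified, and no marker list of a blood cell type reached 80% identified genes. The labelled cell mixture could therefore not be checked against its markers.

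Libraries of d 7 were first compared with the calf they were named after. For this, 50 genes that differed steadily between the weaned calves were chosen on d 0, 1 and 2 only, and each d 7 library was correlated across these genes with the mean of each calf on the earlier days. The d 7 libraries of calves 1762, 1769, 1773 and 1809 had a Pearson correlation of 0.90 to 0.95 with their own calf, and those of the 6 control calves, over 50 genes chosen in the same way, 0.83 to 0.95. The d 7 library of calf 1758 had 0.83 with calf 1770 and 0.34 with its own calf. The d 7 library of calf 1770 had 0.61 with calf 1758 and 0.43 with its own. These correlations are across genes of single libraries and are given as a description.

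Single genes followed this pattern to different degrees, and the 3 examples were chosen after their values were seen. ENSBTAG00000007397 was listed at 0 CPM in calf 1758 on d 0, 1 and 2 and had 3.84 CPM in its d 7 library. In calf 1770 it had 3.87, 5.73 and 3.01 CPM on the earlier days and 0.295 CPM on d 7. ENSBTAG00000014405 had 11 to 12.8 CPM in calf 1758 on the earlier days and 3.29 CPM on d 7, against 1.11, 2.74 and 1.76 CPM and then 12.4 CPM in calf 1770. For both genes the d 7 value lies nearer the other calf's earlier values. ENSBTAG00000038891, whose symbol ULBP3 is shared by 2 identifiers, did so in a single calf. It was at 0 CPM in calf 1758 on the earlier days and had 12.9 CPM in its d 7 library, but calf 1770 had 13.5, 14.2 and 16.6 CPM and still 8.57 CPM on d 7. The exchange of the 2 libraries is therefore not established by these values. The d 0 library of calf 1758 also departed from its own d 1 and d 2 libraries in some of the 50 genes. FBN1 had 50.6 CPM on d 0 against 187 and 208 CPM, and ENSBTAG00000037605 had 98.3 against 15.0 and 15.5 CPM. These genes too were chosen after their values were seen, and whether a library is mixed was not tested. Since both calves were weaned, an exchange of their d 7 libraries alone leaves the 2 groups of 6 libraries as they are, but not the difference within a calf. Differences within these 2 calves are therefore given as labelled. Counts of calves and sign-flip tests use all 6 pairs as labelled. For many of the named genes, the fit with calf as a block is given also without both calves.

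**Figure D1:**
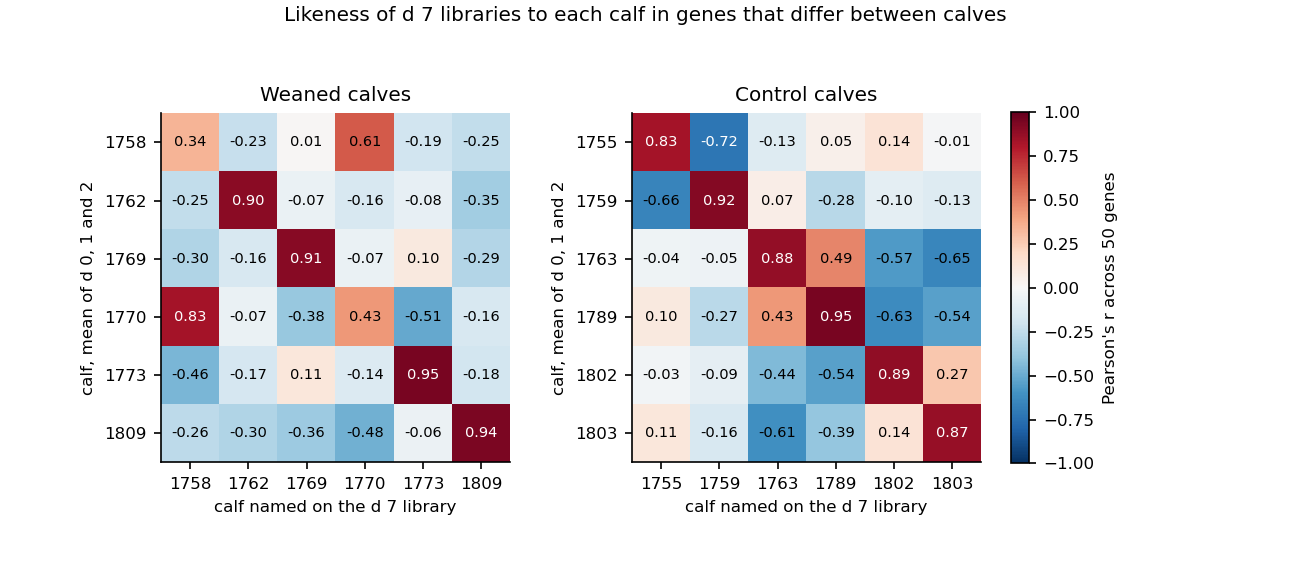
Pearson's r across 50 genes between each d 7 library (columns, by the calf named on it) and the mean of each calf on d 0, 1 and 2 (rows), for weaned calves (left) and control calves (right). The highest value of a column lies on the diagonal in all control calves and in weaned calves 1762, 1769, 1773 and 1809, whereas the libraries named 1758 and 1770 have 0.83 and 0.61 off the diagonal.

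The d 7 library of calf 1758 also stood apart in its levels. Over the 10265 genes with a mean above 5 CPM, its deviation from the other libraries of weaned calves on d 7 had an SD of 0.772 on the log2 scale, and that of calf 1809 had 0.720. The other 4 libraries of d 7 had 0.268 to 0.328, and the 6 of d 0 had 0.329 to 0.490. Results led by calf 1758 are therefore given with and without it.

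No gene was called between d 0 and d 7. Of 14026 genes with at least 10 counts over the 12 libraries, 0 (0.0%) had a Benjamini-Hochberg adjusted p under 0.05 together with a difference of at least 2-fold in edgeR's quasi-likelihood F-test, and the smallest adjusted p was 0.92. At an unadjusted p under 0.05, 241 genes were higher (1.72%) and 130 lower (0.927%) on d 7, which makes 371 genes or 2.65% of those tested. Where no gene differs, a fraction of about 0.05 of the genes is expected to pass this limit. The share of 2.65% lies below that fraction, so passing the limit does not by itself mark a gene as different. DESeq2 called 1 gene, and edgeR's exact test with a common dispersion called 38 (0.271%), of which 19 were higher and 19 lower (0.135% each). With calf as a block, 0 genes were called. At an unadjusted p under 0.05, 217 were higher (1.55%) and 165 lower (1.18%), together 2.72%, again below the fraction of 0.05. In the block over the 4 calves whose pairing is not in doubt, 0 of 13478 genes were called (smallest adjusted p 0.233). There, 447 genes were higher (3.32%) and 577 lower (4.28%) at an unadjusted p under 0.05, together 7.6%, which is above that fraction. With the sequencing flowcell as a block instead, 0 genes were called, and 449 were higher and 413 lower at an unadjusted p under 0.05. The common dispersion, the square of the variation between libraries beyond counting noise, was 0.08 without the block, 0.0566 with the block of 6 calves and 0.00963 with the block of 4. Every gene tested and named in what follows had an adjusted p of 0.92 or more in the 12-library comparison, so the p-values given for single genes are unadjusted and the direction of each is a description of these animals. The SE of a log2 difference is the difference divided by the square root of its F value.

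Calf 1758 led the d 7 side of this comparison. Its d 7 library held the highest of the 6 values of d 7 in 153 of the 241 genes that were higher at an unadjusted p under 0.05 (63.5%), beside 5210 of all 14026 genes (37.1%). It held the lowest value, alone or tied with other calves, in 78 of the 130 lower genes, beside 4611 of all genes (32.9%). Tied values can be among these counts, since genes with few counts can be at 0 CPM in several libraries. COL1A1, for example, was at 0 CPM on d 7 in calves 1758 and 1769. The counts of lowest values therefore do not show how often calf 1758 alone was lowest. Without calf 1758, 109 genes were higher and 88 lower. Without calf 1809, 393 genes were higher and 267 lower. Of the 208 higher genes that could be tested in the block of 4 calves, 59 also had an unadjusted p under 0.05 there. Of 120 lower genes, 59 did. Over all 13478 genes of that block, 3.32% were higher and 4.28% lower at this limit. The libraries of these 4 calves were also among those used to select the 208 and 120 genes. Such overlap was therefore raised in advance and is not independent evidence of a difference.

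Collagen and other genes of the connective tissue matrix were mostly lower on d 7, by several-fold for COL1A1, COL1A2 and COL3A1. Of 19 matrix genes listed, 12 could be identified and 11 tested, of which 6 were lower and 0 higher on d 7 at an unadjusted p under 0.05, with a median log2 difference of -1.64. Over all 14026 genes the median was 0.04, and over the 586 tested genes with a symbol it was 0.46, with 38 higher and 27 lower. Over the 4 calves with calf as a block, 5 of the 11 were lower, 0 were higher and the median was -1.38. The collagen genes are also among those the study reported for these same samples, which is not independent evidence of their direction.

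COL1A1 (ENSBTAG00000013103), a chain of type I collagen, had 5.36 CPM in calf 1758, 1.34 in 1762, 112 in 1769, 151 in 1770, 20.9 in 1773 and 183 in 1809 on d 0. On d 7 the same calves had 0, 0.918, 0, 21.6, 7.28 and 27.9 CPM. As labelled, all 6 calves were lower on d 7, but the groups overlap, because calves 1758 and 1762 were already low on d 0. The d 7 library named 1770 lay above the d 0 value of calf 1758, so this count depends on the labelled pairing. The 4 calves whose pairing is not in doubt were each lower. The log2 difference was -3.08 (SE 1.10, unadjusted p = 0.0132). The exact sign-flip test of the within-calf differences, with all 6 pairs as labelled, gave p = 0.0312, the smallest that 6 calves allow. The exact unpaired permutation gave p = 0.0823. With the block of 4 calves the log2 difference was -3.23 (unadjusted p = 0.000262, adjusted p = 0.295).

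COL1A2 (ENSBTAG00000013472), the other chain of type I collagen, ran in step with it. On d 0 it had 2.68 CPM in calf 1758, 0 in 1762, 69.1 in 1769, 73.3 in 1770, 10.7 in 1773 and 90.7 in 1809. On d 7 these were 0.274, 0, 0.493, 10.0, 2.43 and 8.65 CPM, lower in 5 calves as labelled and at 0 on both days in calf 1762. The log2 difference was -3.53 (SE 1.07, unadjusted p = 0.00494). With all 6 calves in the block COL1A2 had the smallest p of all genes, at 6.92e-05 with an adjusted p of 0.734. When calf 1758 was left out of that block it became the only gene called, with a log2 difference of -3.55 and an adjusted p of 0.0255. For the 4 calves whose pairing is not in doubt, the log2 difference was -3.94 (adjusted p = 0.233).

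COL3A1 (ENSBTAG00000021466), which encodes type III collagen, had 1.79, 1.34, 65.0, 28.5, 10.7 and 58.9 CPM on d 0 and 0.549, 0.612, 0, 19.2, 5.12 and 11.9 CPM on d 7, in the same order of calves. It was lower in all 6 calves, with a log2 difference of -2.18 (SE 0.98, unadjusted p = 0.0416). Decorin (DCN), a small proteoglycan that binds collagen fibrils, had 24 counts over the 6 libraries of d 0 and 1 count over those of d 7. Of the 24 counts, 16 were in calf 1769, and 3 calves were at 0 on both days. MMP2, a gelatinase that degrades matrix, had 29 and 6 counts, and biglycan (BGN), a proteoglycan related to decorin, had 21 and 6. The fibrillar collagen COL5A2 had 12 and 7 counts (log2 difference -0.67, unadjusted p = 0.411). TIMP4, an inhibitor of matrix proteases, lay on the other side with 53 and 86 counts (log2 difference 0.69, unadjusted p = 0.0632). Fibrillin-1 (FBN1), of the elastic microfibrils, differed mainly between calves, from 3.70 to 147 CPM on d 0 and from 3.84 to 164 CPM on d 7, with a log2 difference of 0.41 (unadjusted p = 0.663).

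Since the fibrillar collagens are products of fibroblasts, the whole fibroblast marker list was measured beside them. Of 12 listed markers, 7 were identified and 5 could be tested (COL1A1, COL1A2, COL3A1, DCN and MMP2, all of which are on the matrix list too), and 5 of 5 were lower at an unadjusted p under 0.05. At that limit 0.927% of all 14026 genes were lower, and 27 of the 586 tested genes with a symbol. Symbols were known only for genes the study had called in some comparison, so these markers are preselected. The summed level of the 7 lay between 3.02 and 341 CPM on d 0 (median 147) and between 0.493 and 51.7 CPM on d 7 (median 8.44). It was lower in 6 of 6 calves as labelled. COL1A1, COL1A2 and COL3A1 make up most of this sum, so it largely repeats their values and adds little about the other markers. The 2 markers that could not be tested were near the counting limit. LUM had 2 counts and PDGFRB 9 counts over the d 0 libraries, and both were at 0 on d 7. In such bulk samples, fewer cells of a type and less RNA in each cell cannot be told apart, and the part of fibroblast material in the collagen values was not tested.

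**Figure D2:**
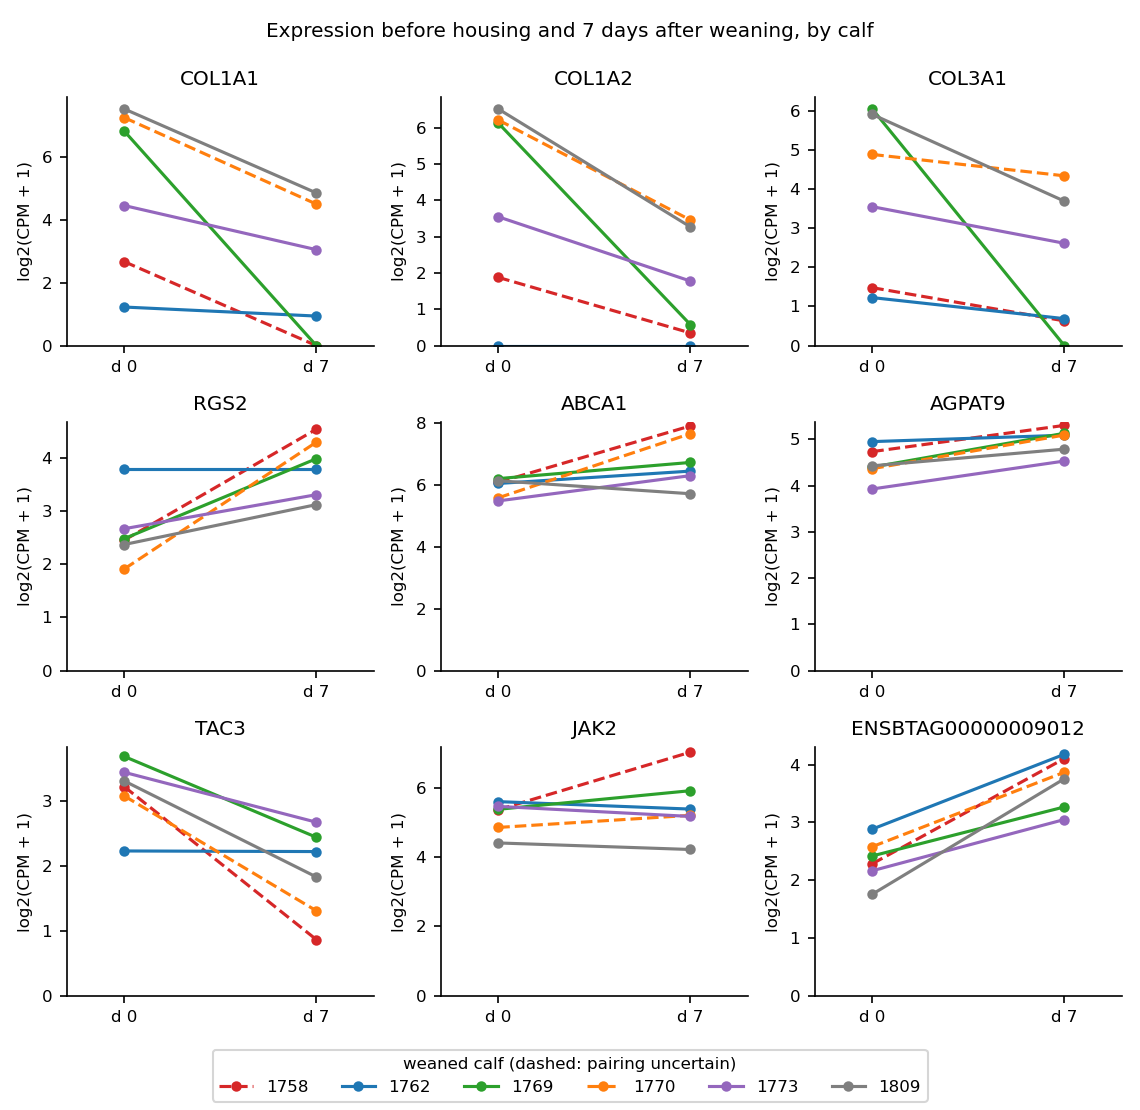
Levels on d 0 and d 7 in each weaned calf for 9 genes, as log2(CPM + 1), with 1 line for each calf and dashed lines for calves 1758 and 1770, whose pairing is uncertain. The collagen lines run downwards in every calf with counts, RGS2 lies level in calf 1762 and higher on d 7 in the others, and JAK2 stands out on d 7 in calf 1758.

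Receptors and regulators of GPCR signalling differed in both directions. The study had assigned 17 genes to this pathway on d 7 from these samples, so their directions are not independent evidence. Of these, 15 could be tested, and 3 were higher and 4 lower on d 7 at an unadjusted p under 0.05. Among the 586 tested genes with a symbol, 38 were higher and 27 lower at that limit. RGS2 (ENSBTAG00000034366), which acts on the G protein of the Gq class, had 4.47, 12.8, 4.58, 2.76, 5.35 and 4.17 CPM on d 0. On d 7 it had 22.2, 12.8, 14.8, 18.6, 8.89 and 7.69 CPM in the same order of calves. It was level in calf 1762, which had by far the highest value on d 0, and higher in the other calves. The log2 difference was 1.32 (SE 0.36, unadjusted p = 0.00247), and in the block of 4 calves it was 0.79 (unadjusted p = 0.0142). RGS1 had 3.57 to 8.06 CPM on d 0 and 1.92 to 30.7 CPM on d 7, with a log2 difference of 0.98 over 6 calves and 0.31 without calf 1758. Of 14 RGS genes listed, 6 were identified and 5 tested, with RGS2 alone at an unadjusted p under 0.05 and a median log2 difference of 0.98, beside 0.46 over all genes with a symbol. Over the 4 calves the median of the 4 that could be tested was -0.05. RGS11 had 3 counts on d 0 and 10 on d 7.

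TAC3 (ENSBTAG00000021807), the precursor of the neuropeptide neurokinin B, had the smallest p of the genes with a symbol that are named here. It had 8.34, 3.70, 11.9, 7.46, 9.89 and 8.93 CPM on d 0 and 0.823, 3.67, 4.44, 1.48, 5.39 and 2.56 CPM on d 7. Calf 1762, the lowest on d 0, was level, and the other 5 were lower on d 7. The log2 difference was -1.45 (SE 0.39, unadjusted p = 0.00217), and -1.09 in the block of 4 calves (unadjusted p = 0.00308).

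Other members of the pathway differed less clearly. The Wnt receptor FZD7 was lower in 5 of 6 calves, from a median of 3.95 to 2.46 CPM, with a log2 difference of -0.72 (unadjusted p = 0.031). Its relative FZD4 and the vasodilator peptide adrenomedullin (ADM) owed their negative sign to calf 1769 on d 0, which had 41.7 CPM of FZD4 and 36.9 CPM of ADM against at most 5.95 and 1.07 CPM in the other calves. Without that calf the log2 differences of -0.95 and -2.56 became 0.23 and 1.10. The adenylyl cyclase ADCY8, which makes cyclic AMP, had 3.87 to 7.75 CPM on d 0 and 0.549 to 10.7 CPM on d 7 (unadjusted p = 0.277). PRKACB, a catalytic subunit of the protein kinase that cyclic AMP activates, had 42.1 ± 9.32 and 49.9 ± 32.1 CPM (SD, n = 6), with a log2 difference of 0.23 over 6 calves and of -0.35 over 4 with the block (unadjusted p = 0.0227).

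Several genes of the pathway were at or near the counting limit. TSHB, the beta subunit of thyrotropin, had 4 counts over d 0 and 24 over d 7. RAPGEF4, an exchange factor that is activated by cyclic AMP, had 0 and 11, the serotonin receptor HTR2B had 0 and 6, the peptide UTS2 had 2 and 10, and the endothelin receptor EDNRB had 6 and 18. With so few counts no fold is given. Of the 18 counts of EDNRB on d 7, calf 1758 held the largest share, at 2.74 CPM against 0.986 CPM or less in the other calves.

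All 7 genes that the study had placed in haemostasis from these samples could be tested. Beside 27 lower and 38 higher of the 586 tested genes with a symbol, 3 were lower and 1 higher at an unadjusted p under 0.05. The 3 were the collagens. The higher gene was ITGA2 (ENSBTAG00000019289), the alpha chain of a collagen-binding integrin, with 6 counts on d 0 and 31 on d 7. It had at most 0.595 CPM on d 0 and 0.539 to 3.84 CPM on d 7, higher in 6 of 6 calves, with a log2 difference of 2.23 (SE 0.69, unadjusted p = 0.00563). Over the 4 calves with the block it was 1.24 (unadjusted p = 0.0833). ITGA9, another integrin alpha chain, had 6.81 ± 2.69 and 10.4 ± 5.41 CPM (SD, n = 6), higher in 5 of 6 calves (log2 difference 0.58, unadjusted p = 0.0937). Platelet genes were set beside these. Of 14 platelet markers 4 could be identified and tested, and 0 had an unadjusted p under 0.05, with a median log2 difference of -0.41. The chemokine PPBP, which platelets release, had 2.72 ± 1.66 CPM (SD, n = 6) on d 0 and 1.82 ± 0.759 CPM (SD, n = 6) on d 7. P-selectin (SELP) had 9.01 ± 2.83 and 7.91 ± 0.958 CPM.

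The cytokine genes named by the study gave little. Interferon gamma (IFNG), the main cytokine of type 1 immune responses, had 8 counts over the 6 libraries of d 0 and 1 count over those of d 7, too few to be tested. The 3 others were tested, and 0 had an unadjusted p under 0.05. JAK2, a kinase that carries cytokine signals, had 40.2, 47.4, 40.5, 27.9, 43.0 and 20.2 CPM on d 0 and 129, 40.7, 59.2, 35.8, 35.0 and 17.6 CPM on d 7. The d 7 value of calf 1758 was more than 2-fold above every other value, 3 calves were higher and 3 lower, and the log2 difference of 0.52 was 0.07 without calf 1758. LRPPRC, which binds mitochondrial mRNA, had a log2 difference of 0.48 that was -0.08 without this calf. LIF, a cytokine of the IL-6 family, had 6.87 to 18.8 CPM on d 0 and 7.04 to 34.3 CPM on d 7, higher in 3 of 6 calves (log2 difference 0.53, unadjusted p = 0.128). Its log2 difference was 0.15 without calf 1758 and 0.31 over the 4 calves with the block. IL18, a cytokine that promotes interferon gamma release, had 5.57 ± 2.99 and 7.77 ± 2.85 CPM (SD, n = 6), higher in 5 of 6 calves, with a log2 difference of 0.46 (unadjusted p = 0.251) and of 0.07 over 4 calves with the block.

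Chemokines had lower values on d 7 with 1 exception among those tested. Of 20 listed, 10 were identified and 8 tested, with 1 higher and 2 lower at an unadjusted p under 0.05 and a median log2 difference of -0.57. Among the 586 tested genes with a symbol, 38 were higher and 27 lower, with a median of 0.46. CCL19, which guides lymphocytes and dendritic cells to lymph nodes, had 26 counts on d 0 and 6 on d 7 and was lower in 6 of 6 calves (log2 difference -1.96, SE 0.69, unadjusted p = 0.0122). CCL22, a chemoattractant of T cells, had 13 and 3 counts. The neutrophil chemoattractant IL8 was the exception, with 15 and 37 counts, higher in 5 of 6 calves (log2 difference 1.24, SE 0.50, unadjusted p = 0.0264). IL8 had a log2 difference of 0.58 in the block of 4 calves (unadjusted p = 0.348). CXCL10, which interferons induce, had 2.21 to 17.6 CPM on d 0 and 2.88 to 7.68 CPM on d 7. It was lower in 4 of 6 calves, with a log2 difference of -0.88 (unadjusted p = 0.0735), and of -1.35 in the block of 4 calves (unadjusted p = 0.000292, adjusted p = 0.303). CCL4, a chemokine of activated monocytes and T cells, was lower in 5 of 6 calves, at 21.7 ± 10.7 and 15.3 ± 5.95 CPM (log2 difference -0.52, unadjusted p = 0.133).

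ABCA1 (ENSBTAG00000020661), which exports cholesterol from the cell, was the only gene identified of 18 on the list of cholesterol and fatty acid metabolism. It had 67.0, 65.2, 72.8, 47.0, 43.8 and 69.3 CPM on d 0. On d 7 it had 239, 86.3, 105, 201, 77.9 and 51.6 CPM. It was higher in 5 calves, most so in the libraries named 1758 and 1770, and lower in calf 1809. The log2 difference was 1.05 (SE 0.32, unadjusted p = 0.00468), and 0.34 in the block of 4 calves (unadjusted p = 0.0672). AGPAT9 (ENSBTAG00000017592), an acyltransferase of triglyceride synthesis, was higher in all 6 calves, at 21.7 ± 5.43 CPM (SD, n = 6) on d 0 and 31.2 ± 5.85 CPM (SD, n = 6) on d 7. Its log2 difference of 0.52 (SE 0.20, unadjusted p = 0.0199) was 0.47 in the block of 4 calves (unadjusted p = 0.00944). FABP6, a binding protein of bile acids, was also higher in all 6 calves, from 29 counts to 70, with a log2 difference of 1.24 (SE 0.38, unadjusted p = 0.00549) and of 0.97 in the block of 4 calves (unadjusted p = 0.0178).

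Other named genes were higher in most or all calves. The noradrenaline transporter SLC6A2 had 0.595 to 10.1 CPM on d 0 and 4.58 to 12.9 CPM on d 7, higher in 6 of 6 calves, with an unadjusted p of 0.0482 without and 0.00259 with the block of 6 calves. TIAM2, an activator of the GTPase Rac, had 15.9 ± 8.68 and 28.3 ± 12.6 CPM, higher in 6 of 6 calves, with an unadjusted p of 0.0446 without and 0.00303 with the block. With the block over 4 calves the log2 differences were 1.03 (unadjusted p = 0.0104) and 0.50 (unadjusted p = 0.00408). The groups of d 0 and d 7 overlap for both genes.

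A further set was led by the d 7 library of calf 1758. KDR, a receptor of vascular endothelial growth factor, had 2.08 to 5.27 CPM on d 0 and 21.7 CPM on d 7 in calf 1758, beside 3.84 to 14.5 CPM in the other calves (log2 difference 1.16, unadjusted p = 0.013). The kinase YES1 had 12 counts on d 0 and 53 on d 7, the proteasome subunit PSMC6 had 29 and 68, the nucleoporin NUP54 had 24 and 56, the ecto-nucleotidase NT5E had 25 and 68, and the inhibitory receptor CD200R1 had 44 and 99. None of these 6 genes had an unadjusted p under 0.05 in the block of 4 calves, and their log2 differences of 1.15 to 2.07 over 6 calves were 0.34 to 0.96 there. TEK, the receptor of angiopoietins, had 40 and 80 counts, with 11.5 CPM in calf 1758 on d 7 (log2 difference 0.96, unadjusted p = 0.132), and -0.16 over 4 calves with the block. KDR and TEK were the only genes identified of 12 endothelial markers.

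Among the lower genes, the cyclin-dependent kinase inhibitor CDKN1C had 7.78 ± 3.73 CPM (SD, n = 6) on d 0 and 4.51 ± 1.03 CPM (SD, n = 6) on d 7, lower in 5 of 6 calves (log2 difference -0.80, SE 0.31, unadjusted p = 0.0212), and -0.53 in the block of 4 calves (unadjusted p = 0.0954). The endocytic adaptor DAB2 had 7.56 ± 4.56 and 3.45 ± 2.28 CPM (log2 difference -1.12, unadjusted p = 0.038), and -1.15 in the block of 4 calves (unadjusted p = 0.0111). The kinase PAK6 had 7.35 ± 3.54 and 4.26 ± 1.7 CPM (log2 difference -0.80, unadjusted p = 0.0388), and -0.55 in that block (unadjusted p = 0.0657). DAB2 and PAK6 were each lower in 5 of 6 calves, DAB2 with calf 1770 and PAK6 with calf 1762 as the exception. The receptor phosphatase PTPRF had 126 to 354 CPM on d 0 and 126 to 279 CPM on d 7, and its log2 difference was -0.51 without the block (unadjusted p = 0.0575) and -0.46 with it (unadjusted p = 0.0156). ALDH1A1, which makes retinoic acid, again rested on calf 1769, with 30.2 CPM in that calf on d 0 against at most 2.02 CPM elsewhere among the 12 libraries.

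**Figure D3:**
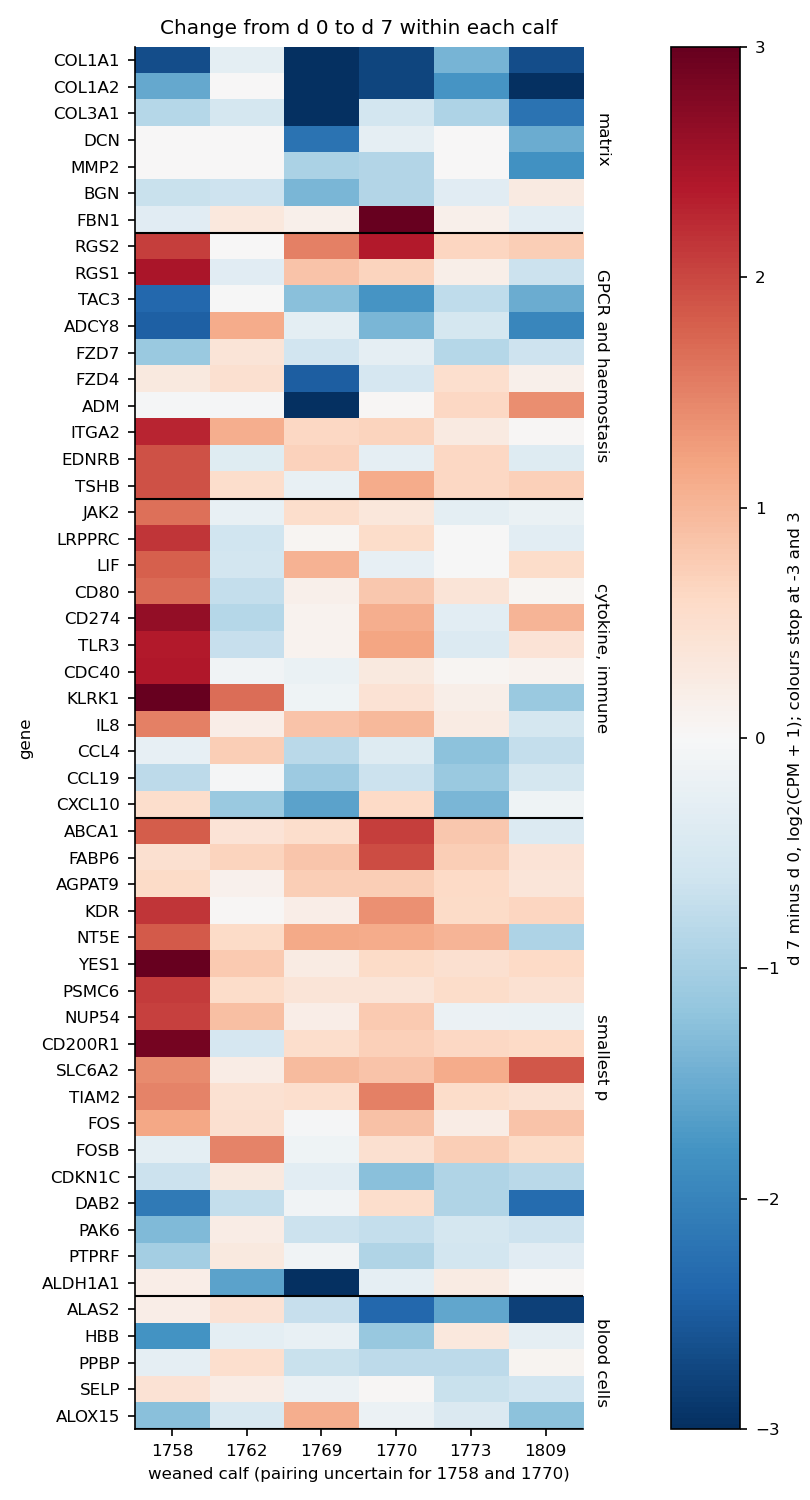
Difference between d 7 and d 0 within each weaned calf as labelled, for genes in 5 groups, in log2(CPM + 1). Blue marks lower and red higher levels on d 7, the colours stop at -3 and 3, and the collagens are blue in every calf with counts while most cytokine and immune genes are red in calf 1758 and mixed elsewhere.

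The immediate early genes FOS and FOSB, subunits of the transcription factor AP-1 that cells induce quickly on stimulation, were the only 2 of 21 listed that could be identified, and both were higher at an unadjusted p under 0.05. At that limit 1.72% of all 14026 genes were higher, and 38 of the 586 tested genes with a symbol. FOS had 66.7 to 167 CPM on d 0 (median 102) and 105 to 199 CPM on d 7 (median 165), higher in 5 of 6 calves, with a log2 difference of 0.53 (SE 0.23, unadjusted p = 0.0336). FOSB had 26.2 ± 5.79 CPM (SD, n = 6) and 37.7 ± 11.1 CPM (SD, n = 6), higher in 4 of 6 calves (log2 difference 0.51, SE 0.23, unadjusted p = 0.0418). In the block of 4 calves the log2 differences were 0.36 (unadjusted p = 0.0144) and 0.64 (unadjusted p = 0.0145).

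Few genes separated the days completely. The 6 values of d 7 lay all above those of d 0 in 10 genes (0.0713%) and all below in 4 genes (0.0285%). All 6 calves were higher on d 7 in 216 genes (1.54%) and lower in 130 genes (0.927%). Whether so many genes would also be found without a difference between the days was not tested. Complete separation, or a common direction in all 6 calves, therefore does not by itself mark a gene as different. The separated genes named here were chosen after their values were seen, and 4 of the 5 have no symbol. ENSBTAG00000009012 had 3.87, 6.38, 4.35, 4.98, 3.48 and 2.38 CPM on d 0 and 16.2, 17.1, 8.63, 13.6, 7.28 and 12.5 CPM on d 7. Its log2 difference was 1.55 (SE 0.29, unadjusted p = 7.15e-05), the smallest p of the 14026 genes, and DESeq2 called it alone, with an adjusted p of 0.00247. ENSBTAG00000016381 had 12.8 ± 3.08 and 22.3 ± 4.07 CPM (log2 difference 0.79, SE 0.20, unadjusted p = 0.00115). ENSBTAG00000001136 had 67.5 ± 7.00 CPM on d 0 and 51.6 ± 6.14 CPM on d 7 (log2 difference -0.40, SE 0.13, unadjusted p = 0.00688), so its values on the 2 days are separate although the difference is small. ENSBTAG00000003515 had 22 and 5 counts, and EPN3, an adaptor of endocytosis, had 21 and 9 counts.

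Genes of innate sensing, costimulation and RNA processing had positive log2 differences over 6 calves that were near or below 0 in the block of 4 calves. The RNA surveillance list had 5 identifiers that could be tested, all 5 with positive values, 0 at an unadjusted p under 0.05 and a median log2 difference of 0.53, which was -0.06 in the block of 4 calves. The splicing factor CDC40 had 79.8 CPM on d 7 in calf 1758 and 15.1 to 27.6 CPM in the other calves. The sensor of double-stranded RNA TLR3 had 90.8 CPM in this library and 22.1 to 33.8 CPM in the others, CD80, a ligand that costimulates T cells, had 76.0 against 20.5 to 40.7 CPM, and CD274, which restrains T cells, had 48.0 against 8.33 to 16.3 CPM. In the block of 4 calves the log2 differences of these 4 genes were between -0.17 and -0.03. Without calf 1758 alone, CDC40, TLR3 and CD80 did not turn negative, and CD274 had -0.03. The exosome nuclease DIS3 (ENSBTAG00000032942) had 14.3 CPM in the same library, with a log2 difference of 0.61 over 6 calves and of 0.03 in 4. The nucleic acid sensors TLR7 and DDX58 and the receptor TLR10 had log2 differences of 0.06, 0.11 and 0.50 over 6 calves and of -0.36 (unadjusted p = 0.00347), -0.54 (unadjusted p = 0.015) and -0.07 over the 4 calves.

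Markers of natural killer cells differed in sign, with 2 of 12 identified, 1 of them higher and 1 lower and 0 at an unadjusted p under 0.05. KLRK1, an activating receptor, had 36.8 CPM on d 7 in calf 1758 and 0.961 to 18.4 CPM elsewhere (log2 difference 1.06, unadjusted p = 0.0695). Its log2 difference was 0.44 without calf 1758 and 0.33 over the 4 calves with the block (unadjusted p = 0.384). Granzyme A (GZMA), a protease of cytotoxic granules, had 257 counts on d 0 and 213 on d 7, with a log2 difference of -0.21 that was -1.10 without calf 1758, 0.31 without calf 1769 and -1.37 over the 4 calves with the block (unadjusted p = 0.0117). GZMA had 31.5 CPM on d 7 in calf 1758.

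Few members of the other lists could be identified, and they had no common direction. Of 25 mitotic genes, BUB1B and CDK1, which drive and guard chromosome separation, had log2 differences of 0.39 and 0.12 over 6 calves and of -0.16 and -0.47 over 4 with the block. The chaperone HSPH1, the single gene identified of 15 on the heat shock list, had 0.26 (unadjusted p = 0.505) and -0.41 (unadjusted p = 0.00459). PGLYRP1, a granule protein that was the only one identified of 17 neutrophil markers, had 7.59 ± 3.5 and 7.53 ± 5.55 CPM (SD, n = 6), with -0.02 and 0.48 (unadjusted p = 0.0615). Of 8 vitamin D genes, the catabolic enzyme CYP24A1 had 14 counts on d 0 and 4 on d 7 (log2 difference -1.61, unadjusted p = 0.091), and the antimicrobial peptide gene CAMP (ENSBTAG00000031599) had 3 and 10 counts.

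Of 10 markers of red cells listed, 3 were identified and 2 tested, of which ALAS2 alone was lower at an unadjusted p under 0.05. Among the 586 tested genes with a symbol, 27 were lower at that limit. ALAS2, the first enzyme of haem synthesis in red cell precursors, had 1.79, 1.34, 2.98, 10.2, 5.08 and 5.95 CPM on d 0 and 2.19, 2.14, 1.48, 1.18, 1.08 and 0 CPM on d 7. It was lower in 4 of 6 calves, with a log2 difference of -1.74 (SE 0.56, unadjusted p = 0.0072), and of -1.63 in the block of 4 calves (unadjusted p = 0.025). Beta globin (HBB) had 9.39 ± 1.77 CPM (SD, n = 6) and 6.44 ± 2.84 CPM (SD, n = 6), lower in 5 of 6 calves (log2 difference -0.55, unadjusted p = 0.0887), and its log2 difference was -0.14 over the 4 calves with the block (unadjusted p = 0.5). The summed level of the 3 was 9.07 to 20.2 CPM on d 0 (median 13.7) and 4.66 to 11.1 CPM on d 7 (median 7.97), lower in 6 of 6 calves. The leukocytes were isolated by red cell lysis, and the part of residual red cell material was not tested. Of 12 eosinophil and basophil markers, 6 were identified and tested, 4 with positive and 2 with negative values, and 0 had an unadjusted p under 0.05 (median log2 difference 0.32). ALOX15, a lipoxygenase of eosinophils, had 178 ± 53.4 and 136 ± 53.2 CPM (SD, n = 6). GATA1, a transcription factor of red cells, platelets, eosinophils and basophils, had 31.0 ± 13.6 and 25.7 ± 2.66 CPM (SD, n = 6), with a log2 difference of -0.28 over 6 calves and of 0.21 over 4 with the block. CPA3, a protease of mast cells and basophils, had 56 and 108 counts, with a log2 difference of 0.93 that was -0.06 without calf 1758, whose d 7 library had 16.2 CPM.

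Whether the weaned calves differed from d 0 in another way than calves that stayed with their dams was tested as the treatment by day interaction over 24 libraries, with calf as a block. Of 14713 genes, 0 were called (0.0%) and the smallest adjusted p was 0.081, while 3092 were higher (21.0%) and 2176 lower (14.8%) at an unadjusted p under 0.05, that is 35.8% of the genes. DESeq2 called 923 genes, so the count of this comparison depends on the tool. In the control calves themselves, 516 of 13829 genes were called between d 0 and d 7 (3.73%), 63 of them higher (0.456%) and 453 lower (3.28%), and 40.1% had an unadjusted p under 0.05. An interaction is therefore not by itself a difference within weaned calves, and both values are given side by side. When calves 1758 and 1770 were left out of the interaction, 0 of 14440 genes were called (0.0%, smallest adjusted p 0.361), and 1486 were higher (10.3%) and 416 lower (2.88%) at an unadjusted p under 0.05, together 13.2%. None of the interaction values of single genes given next passes the adjusted threshold.

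CDKN1C had the largest contrast among the named genes by p, with a log2 difference of -0.80 in weaned and 1.22 in control calves (interaction -1.99, unadjusted p = 0.000114, adjusted p = 0.081). TAC3 had -1.45 in weaned and 0.60 in control calves (interaction -1.96, unadjusted p = 0.00123). COL1A1 had -3.08 and 1.15 (interaction -3.92, unadjusted p = 0.00468), and COL1A2 had -3.53 and 0.77 (interaction -4.18, unadjusted p = 0.00635). In the control calves COL1A1 ranged from 1.63 to 65.4 CPM on d 0 and from 6.76 to 176 CPM on d 7, with no common direction, since 4 calves were higher and 2 lower. On the side of higher values, ABCA1 had 1.05 in weaned and -0.53 in control calves (interaction 1.65, unadjusted p = 0.00116), AGPAT9 had 0.52 and -0.37 (interaction 0.88, unadjusted p = 0.00955) and TIAM2 had 0.82 and -0.91 (interaction 1.79, unadjusted p = 0.00238). ENSBTAG00000009012 had 1.55 and -0.71 (interaction 2.13, unadjusted p = 0.000416). Without calves 1758 and 1770 the interactions of these genes were -1.77 for CDKN1C, -1.52 for TAC3, -3.95 for COL1A1, -4.55 for COL1A2, 1.10 for ABCA1, 0.83 for AGPAT9, 1.45 for TIAM2 and 2.05 for ENSBTAG00000009012, each at an unadjusted p of 0.0204 or less.

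Several immune and RNA processing genes had lower values on d 7 in control calves, beside the positive values of the weaned calves. JAK2 had a log2 difference of -0.92 in control calves (adjusted p = 0.033) and LRPPRC of -1.12 (adjusted p = 0.0222), and the interactions were 1.16 and 1.39 (unadjusted p = 0.00381 and 0.0023). CDC40 had a log2 difference of -1.15 in control calves (adjusted p = 0.0222), TLR3 of -0.96 (adjusted p = 0.0222) and CD274 of -1.44 (adjusted p = 0.0371), with interactions of 1.49, 1.43 and 1.87. Without calves 1758 and 1770 the interactions were 0.83 for JAK2, 0.88 for LRPPRC, 1.04 for CDC40, 0.80 for TLR3 and 1.18 for CD274 (unadjusted p of 0.00279 to 0.0374), and the log2 differences of the 4 weaned calves alone were -0.22 to -0.02. The RNA surveillance list had 5 identifiers tested, 2 of them for the gene DIS3. All 5 had a positive interaction at an unadjusted p under 0.05 (median 1.39). So did 3 of 3 genes of toll-like receptors (median 1.43) and 3 of 3 of costimulation (median 1.87), beside 262 of 632 genes with a symbol (median 1.13). Without the 2 calves these were 4 of 5 (median 0.89), 2 of 3 (median 0.80) and 1 of 3 (median 1.18), beside 162 of 622 (median 0.66). FOSB went the other way. It rose in control calves (log2 difference 1.7, adjusted p = 0.0222) by more than its 0.51 in weaned calves, with an interaction of -1.09 (unadjusted p = 0.00645) and of -0.91 without the 2 calves (unadjusted p = 0.0191). RGS2 had 1.32 in weaned and 0.53 in control calves, an interaction of 1.02 (unadjusted p = 0.0487) that was 0.44 without the 2 calves (unadjusted p = 0.328).

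**Figure D4:**
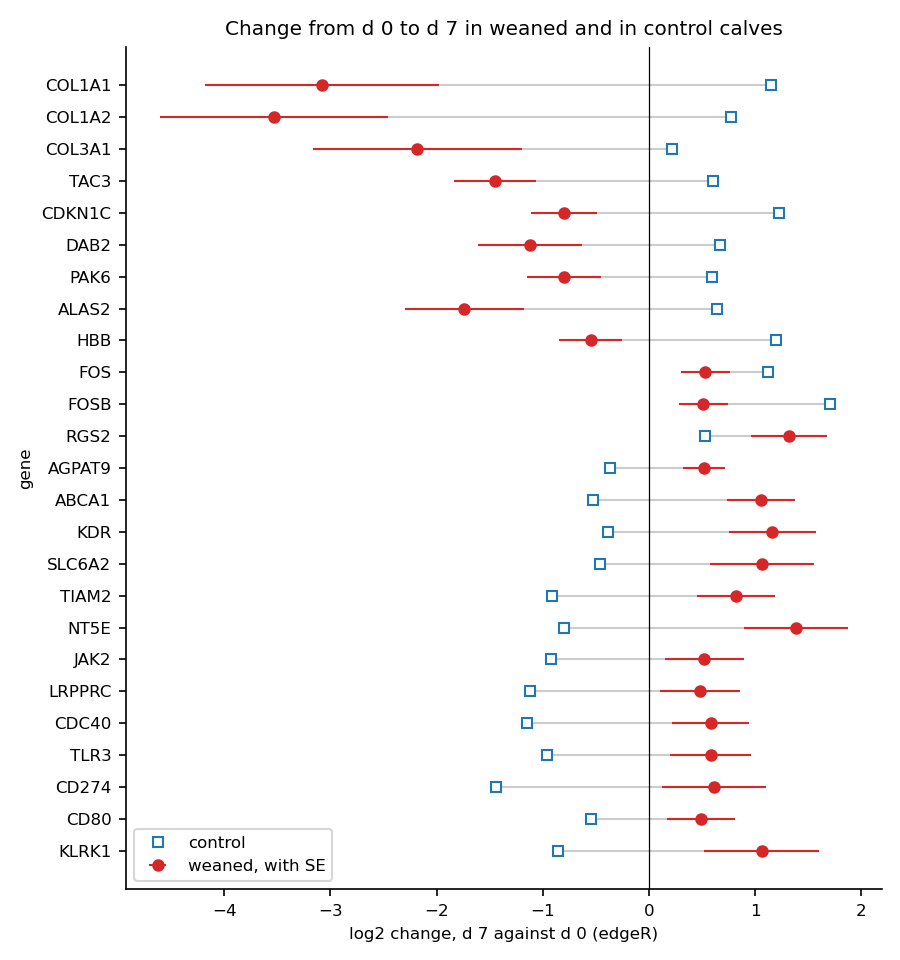
Log2 difference between d 7 and d 0 for 25 genes, with filled red circles and SE bars for the 6 weaned calves and open blue squares for the 6 control calves. Collagens, TAC3 and CDKN1C lie below 0 in weaned and above 0 in control calves, whereas JAK2, LRPPRC, CDC40, TLR3 and CD274 lie below -0.9 in control calves and above 0 in weaned calves, where calf 1758 had their highest d 7 values.

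The days between were read from the other libraries of the weaned calves, which share the d 0 libraries with the d 7 comparison, so the values of each day are given side by side and not compared across days. On d 1, 0 of 14038 genes were called (0.0%, smallest adjusted p 0.423) and 1456 had an unadjusted p under 0.05 (10.4%, of which 6.07% higher and 4.3% lower). For d 2, 0 of 13984 were called (0.0%, smallest adjusted p 0.944) and 295 had one (2.11%, of which 1.39% higher and 0.722% lower). COL1A1 had a median of 66.5 CPM before housing, and of 27.3, 2.98 and 4.10 CPM on the 3 later days. The log2 difference from d 0 was -1.20 on d 1 (unadjusted p = 0.237) and -3.32 on d 2 (unadjusted p = 0.00514). TAC3 had medians of 8.63, 4.09, 3.79 and 3.12 CPM on the 4 days, and RGS2 had 4.52, 11.9, 10.2 and 13.8 CPM. ABCA1 had medians of 66.1, 111, 91.5 and 95.9 CPM, with an unadjusted p of 0.000147 on d 1. AGPAT9 had medians of 20.3, 36.9, 32.4 and 33.1 CPM. ALAS2 had 4.03, 2.43, 2.89 and 1.33 CPM, with a single calf at 28.2 CPM on d 1.

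**Figure D5:**
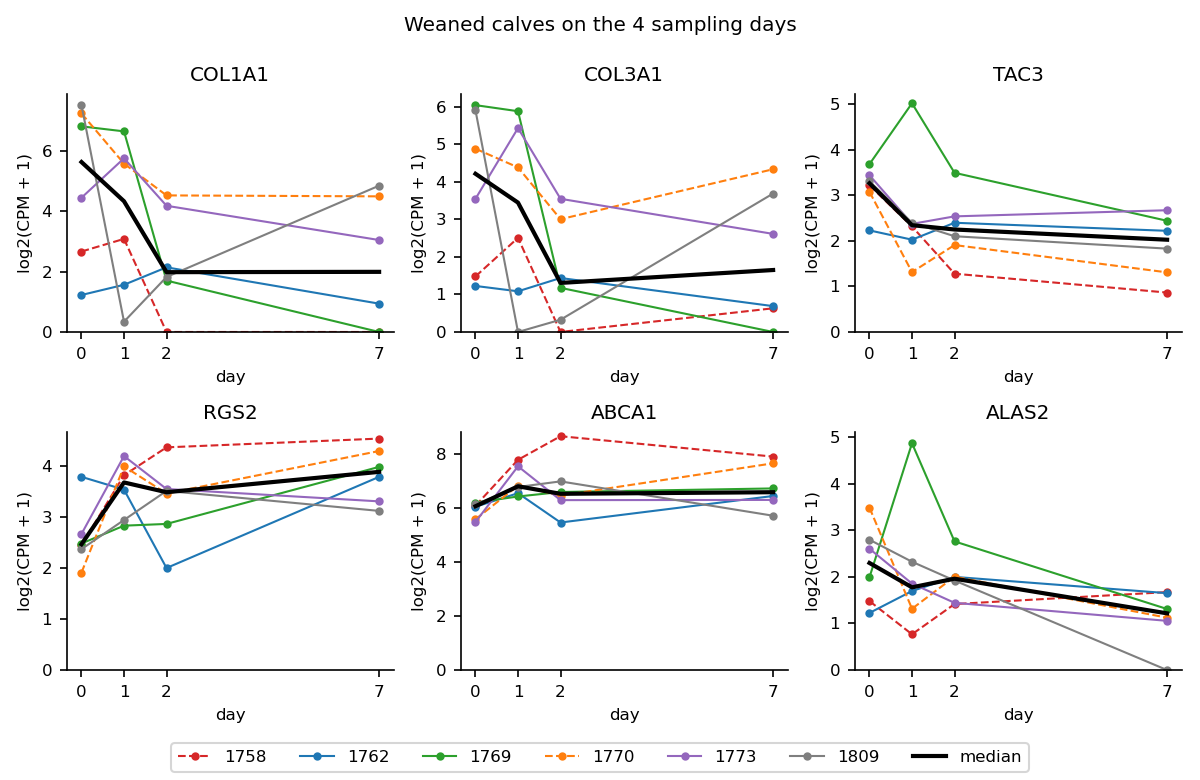
Levels of 6 genes in the weaned calves on d 0, 1, 2 and 7, as log2(CPM + 1), with 1 thin line for each calf (dashed for 1758 and 1770) and a thick black line for the median. The median of COL1A1 lies lowest on d 2, those of RGS2 and ABCA1 lie above d 0 on all 3 later days, and the calves overlap between days in every panel.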

How the data were processed

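The deposited table holds raw counts of reads per Ensembl gene, not normalised. The authors sequenced single reads, aligned them to Btau4.0 with Bowtie 0.12.7 (no mismatches, reads with several alignments suppressed), kept 1 read at each genomic position and counted with HTSeq 0.4.6p2 on Ensembl annotation. Identical reads of abundant genes are lost in this way, which compresses high levels. Whether strand was used is not given in the sources used here, so overlapping genes may share reads.

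The 12 libraries of weaned calves on d 0 and d 7 were compared in edgeR 4.0.16 (R 4.3.3) with TMM scaling, genes with at least 10 counts in total and the quasi-likelihood F-test (limits: Benjamini-Hochberg adjusted p under 0.05 with at least 2-fold). Calf numbers mark the same animal, so calf was fitted as a replicate block in an alternative, and in the interaction. DESeq2 1.42.0, other scalings, filters, batches and left-out calves were also tried. Exact tests within calves used log2(CPM + 1). In 30 pairs of libraries of the same group and day, chi-square divided by its degrees of freedom was 2.79 to 57.9, so none was a repeat of another. The F-test was also run on simulated counts of 14026 genes, all with a dispersion of 0.08, without calf effects or a library standing apart. At an adjusted p under 0.05, without the 2-fold limit, it called 70% of 100 genes changed 2-fold and 100% of 100 changed 4-fold. The changed genes had a mean of at least 10 counts, and 7 unchanged genes were called too. Since the real libraries differ from this setting, these shares do not give the power of the real comparison.

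Genes named were those the study lists on d 7, those with a symbol and the smallest p (10 in each direction, 5 with the block, at least 60 counts), and for each list the members with the smallest p or the highest level. MMP2, BGN, COL5A2, TIMP4, EPN3, CCL22, ULBP3 and the genes without a symbol fall outside this rule and were chosen after their values were seen. A few genes that the rule would name are not reported here. Groups, genes and lists were chosen with earlier results of these data known. Python 3.11.15 with numpy 2.4.6, pandas 2.3.3, scipy 1.17.1 and matplotlib 3.10.9 made the tables and plots.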

Additional observations from a re-analysis of the deposited data

Results flagged for a closer look

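In each group of 6 libraries, the highest or lowest value of each named gene was set against the other 5 (Dixon's test at 95%). Of 141 groups examined, 28 had a value standing apart. Chance gives about 1 in 20 for normally distributed values, but CPM was used untransformed and some genes had few counts. The genes are also not independent of each other, and many were named for a small p in these same libraries. That rate is therefore only a rough guide. The d 7 library of calf 1758 accounted for 19 of the 28. It had 129 CPM of JAK2, 146 CPM of LRPPRC, 137 CPM of HSPH1, 114 CPM of PRKACB, 90.8 CPM of TLR3, 79.8 CPM of CDC40, 76.0 CPM of CD80, 48.0 CPM of CD274, 34.3 CPM of LIF, 31.5 CPM of GZMA and 30.7 CPM of RGS1. Also highest in the same library, at smaller values, were CPA3 (16.2 CPM), DIS3 (14.3 CPM), TEK (11.5 CPM), YES1 (7.68 CPM), PSMC6 (7.13 CPM), NUP54 (6.86 CPM), EDNRB (2.74 CPM) and UTS2 (1.65 CPM). On d 0, calf 1769 stood apart with 41.7 CPM of FZD4, 36.9 CPM of ADM, 30.2 CPM of ALDH1A1 and 11.9 CPM of ITGA9. Calf 1762 had 12.8 CPM of RGS2 on d 0, and calf 1773 had 2.94 CPM of CCL19 on d 0. On d 7, calf 1769 had 30.8 CPM of GATA1, and calf 1809 had 21.1 CPM of ITGA9 and 0 CPM of RGS11.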

How the results depend on the processing

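The calf numbers pair the libraries by animal. With calf as replicate block 0 genes were called, with 217 higher and 165 lower at an unadjusted p under 0.05, and the block changed no call of a named gene except that COL1A2 was called (-3.55) in the block without calf 1758, the single gene called there. DESeq2 called 1 gene, the exact test with tagwise dispersions 1 and with a common dispersion 38. The count of 241 higher genes was 376 without the filter, 133 with filterByExpr, 748 in the exact test with a common dispersion, 447 in the block of 4 calves and 65 without the block in these calves, 449 with flowcell as a block and 154 with the share of reads kept as a covariate. The count of 130 lower genes was 82 with filterByExpr, 577 in the block of 4 calves, 66 without the block in these calves, 413 with flowcell as a block and 218 in the 4 calves whose 2 libraries shared a flowcell. With each calf left out, 109 to 393 were higher and 74 to 267 lower, lowest without calf 1758 for the first and without 1770 for the second and highest without 1809 for both. Without calf 1773 they were 148 and 84, and without calf 1770, 122 were higher. In the block with a calf left out, 125 (without 1770) and 127 (without 1773) were higher, and 232, 217, 76, 84 and 205 were lower without 1758, 1762, 1770, 1773 and 1809. The interaction had 923 genes called in DESeq2, 625 without the filter and 0 without calves 1758 and 1770. On d 1 the block called 2 genes and the exact test with a common dispersion 64, and on d 2 the latter called 62. The cause of these differences was not tested.

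Of 78 named genes with a test, 56 kept their sign in all alternatives run, and 22 did not. In the block of 4 calves the log2 difference was -0.16 for BUB1B and TEK, -0.47 for CDK1, -0.54 for DDX58, 0.21 for GATA1, -0.41 for HSPH1, 0.48 for PGLYRP1, -0.35 for PRKACB, -0.07 for TLR10, -0.36 for TLR7, -0.02 for JAK2, -0.22 for LRPPRC, -0.03 for CD80, -0.17 for TLR3, -0.16 for CD274 and -0.06 for CDC40, and without the block in these calves -0.11 for BUB1B, -0.15 for TEK, -0.45 for CDK1, -0.58 for DDX58, 0.16 for GATA1, -0.44 for HSPH1, 0.51 for PGLYRP1, -0.33 for PRKACB, -0.09 for TLR10, -0.35 for TLR7, -0.21 for LRPPRC, -0.04 for CD80, -0.20 for TLR3, -0.29 for CD274 and -0.07 for CDC40. With the share of reads kept as a covariate it was -0.01 for BUB1B, -0.39 for CDK1, -0.29 for DDX58, -0.32 for HSPH1, 0.26 for PGLYRP1, -0.26 for PRKACB and TLR7, -0.03 for TEK and -0.05 for TLR10. In the block without calf 1758 it was -0.14 for BUB1B and TLR7, -0.47 for CDK1, -0.02 for CPA3, -0.26 for DDX58, -0.28 for HSPH1, 0.22 for PGLYRP1, -0.27 for PRKACB and -0.03 for TEK, without calf 1770 -0.12 for DDX58, 0.04 for PGLYRP1 and -0.10 for TLR7, and without calf 1773 0.03 for GZMA. In the calves on the same flowcell GZMA had 0.08. With each calf left out, BUB1B had -0.10 to 0.60, CDK1 -0.45 to 0.39, CPA3 -0.06 to 1.43, DDX58 -0.30 to 0.38, GZMA -1.10 to 0.31, HSPH1 -0.32 to 0.47, PGLYRP1 -0.35 to 0.26, PRKACB -0.26 to 0.36, TEK -0.03 to 1.43 and TLR7 -0.18 to 0.21. LRPPRC had -0.11 with the share of reads kept as a covariate, -0.07 in the block without calf 1758 and -0.08 to 0.71 with each calf left out, and CD274 had -0.03 to 1.10. FBN1 had -0.02 in the block without calf 1770. In the block without calf 1769, FZD4 had 0.22 and ADM 0.97, and with each calf left out FZD4 had -1.21 to 0.23 and ADM -3.35 to 1.10. SELP had 0.03 with flowcell as a block and 0.10 in the calves on the same flowcell. Called by the exact test at a common dispersion were COL1A1, COL1A2, COL3A1, DCN, RGS2, TAC3, ADM, ABCA1, KDR, YES1, ALDH1A1, ALAS2, KLRK1 and ENSBTAG00000009012. An unadjusted exact p under 0.05 was found for 18 of 80 named genes in the sign-flip test, with pairs as labelled, and for 23 in the unpaired permutation. Many of these genes were named for a small p in these same libraries or because the study listed them. Such counts were therefore raised in advance and are not evidence of a difference. Genes with few counts, such as RAPGEF4, UTS2 and HTR2B, could not be tested in all alternatives.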

Other observations

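Across the 10265 genes with a mean above 5 CPM, the deviation of each weaned calf from its group on d 0 was set against that on d 7, as a description across genes within the same libraries. With its own d 7 library, the Pearson correlation was -0.47 for calf 1758, 0.26 for 1762, 0.42 for 1769, 0.19 for 1770, 0.34 for 1773 and 0.74 for 1809. The d 7 library of calf 1758 had 0.64 with calf 1762 on d 0 and -0.63 with calf 1809. Between the 2 calves whose pairing is uncertain, the d 7 library of calf 1758 had -0.47 with calf 1770 on d 0 and that of calf 1770 had 0.17 with calf 1758, so these correlations over all such genes do not show an exchange. Calf 1809 was thus the animal whose departure from the others on d 0 was most alike on d 7, whereas the 50 genes that separate the calves placed the libraries of 1762, 1769, 1773 and 1809 alike with their own animal.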
